A study of Homo sapiens with 10 samples.

Results

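Cells assemble their surface sugars with glycosyltransferases, which add one sugar at a time in the Golgi apparatus, and with sulfotransferases, which place sulfate on finished or growing chains. The members described here were the 79 of 13527 features in one RNA-seq table whose gene symbol begins with GALNT, B3GNT, B3GALT, B4GALT, B4GALNT, ST3GAL, ST6GAL, ST8SIA, FUT, MGAT, GCNT, CHST, CHSY, HS2ST, HS3ST, HS6ST, EXT, XYLT, NDST, POFUT or POGLUT. The rule used names alone and no measured value. Of 137 enzymes that a textbook list places in these classes, 78 had a row and 59 were not analysed here, and B3GNT10 is a member outside that list. The cells were DU145, an established human line of prostate carcinoma first grown from a metastasis in the brain, in 3 libraries with a scrambled hairpin as control (shCon) and 3 with a hairpin that lowers the transcription factor SOX4 (shSOX4). No drug treatment is given for either group, and both carry a short hairpin RNA. The labels do not say how many hairpin sequences were used, whether a line was 1 clone, or whether replicate libraries were grown apart, so the p-values below reflect variation among 3 libraries a group that could be technical only. The study asks whether lowering SOX4 holds back the neuron-like shift of prostate tumour cells. The 4 ATAC-seq libraries of the series were not analysed here.

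Mucin-type O-glycans start when a GALNT enzyme puts N-acetylgalactosamine on serine or threonine, and N-glycans gain antennae through the MGAT enzymes. Heparan sulfate is a long sulfated chain on proteoglycans whose sulfate pattern decides which growth factors it holds, and in carcinoma cells truncated or sialylated O-glycans are a familiar change of the cell surface. These enzymes act in sequence and compete for the same acceptors, so related members are described together below, class by class.

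The libraries held 31189910 to 43361609 counts. SOX4 stood at 12.9, 10.1 and 8.48 CPM (counts scaled to library size) in shCon and at 4.55, 6.44 and 6.01 CPM in shSOX4, so SOX4 changed by -0.89 on the log2 scale (SE 0.236, edgeR adjusted p = 0.0111), and by -0.71 with shCon 1 left out (edgeR adjusted p = 0.0598). On the second principal component, with 15.7% of the variance, shCon 3 and shSOX4 1 stood apart from the other 4 libraries. Member calls that change without both are therefore given below. All 5 epithelial markers had a row, and their summed FPKM (a level scaled to gene length and library size) was 1722 to 2304 in shCon and 3875 to 4165 in shSOX4, while 2 were called higher and 2 lower. Markers of other cells were near the floor. COL1A1, LUM and PDGFRB, the 3 of 6 fibroblast markers with a row, summed to 0.266 to 0.464 FPKM in shCon and 2.27 to 3.61 FPKM in shSOX4, and all 3 were called higher. CDH5, the 1 of 3 endothelial markers with a row, was at 0.106 to 0.220 and 1.21 to 1.76 FPKM and was called higher. Every feature has at least 1 CPM in 3 libraries. Markers this low in shCon may therefore have a row only through their shSOX4 values, which leaves little room for a fall. CD14, the 1 of 4 leukocyte markers with a row, overlapped between the groups. The part of these markers in the results below was not tested.

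More members were lower than higher in shSOX4. At a Benjamini-Hochberg adjusted p under 0.05 (edgeR, adjusted over all features), 9 members were called higher, against 17% of all features, and 20 were called lower, against 15.8% of all features. Together 29 of 79 members were called (36.7%), against 32.8% of all features, so the share called was near the background, while the direction leaned downward. The median log2 fold change was -0.24 over the members and -0.01 over all features, and 54 members had a negative and 25 a positive value. The 3 shSOX4 values lay wholly above the 3 shCon values for 10 members and wholly below for 29, together 49.4% of the members, against 47% of all features. In bulk RNA a lower level in every cell and fewer cells with that level cannot be told apart. The authors' deposited table calls 33 members, 10 higher and 23 lower, and the 29 called here are among them.

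All 79 members passed the filter on low counts, and 6 were under 1 CPM in at least 1 library. HS6ST2 was the 1 member under 1 CPM in every shCon library, so it is in the table only through its shSOX4 values and could not have fallen. Of the other called members, MGAT4A was under 1 CPM in shCon 2 (0.376) and HS3ST1 in shSOX4 2 (0.805) and shSOX4 3 (0.536). Each reached 1 CPM in all 3 libraries only in the group where it was higher, so their calls share that limit in part. Of the 29 called members, 28 did not overlap between the groups, the exception being POGLUT1. With 3 libraries a group, a call and a lack of overlap rest largely on the same difference. This count is therefore no separate support for the calls. Leaving out each library in turn kept 16 of the 29 calls in all 6 fits, 5 higher (HS6ST2, GALNT6, EXTL2, GALNT7 and ST3GAL1) and 11 lower (GALNT12, FUT1, MGAT2, CHST2, CHST6, B4GALNT3, GALNT14, GCNT3, NDST2, GALNT18 and B3GNT3). The other 13 were lost in at least 1 fit and are marked below. The number called lower was 12 without shSOX4 2 and 13 without shSOX4 3, and the number called higher was 6 in each of those fits. Over all features 4431 were called with all libraries, 2509 without shSOX4 2 and 2966 without shSOX4 3. Without both shCon 3 and shSOX4 1 the numbers were 11 higher and 24 lower among the members, while 5532 of all features were called. In that fit the call for B3GALT4 was lost (adjusted p = 0.054, edgeR). NDST1 and B4GALT4 were called higher in it, and EXT1, B4GALNT1, B3GNT4, B3GNTL1 and XYLT2 lower (adjusted p of 0.00195 to 0.0355, edgeR).

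**Figure D1:**
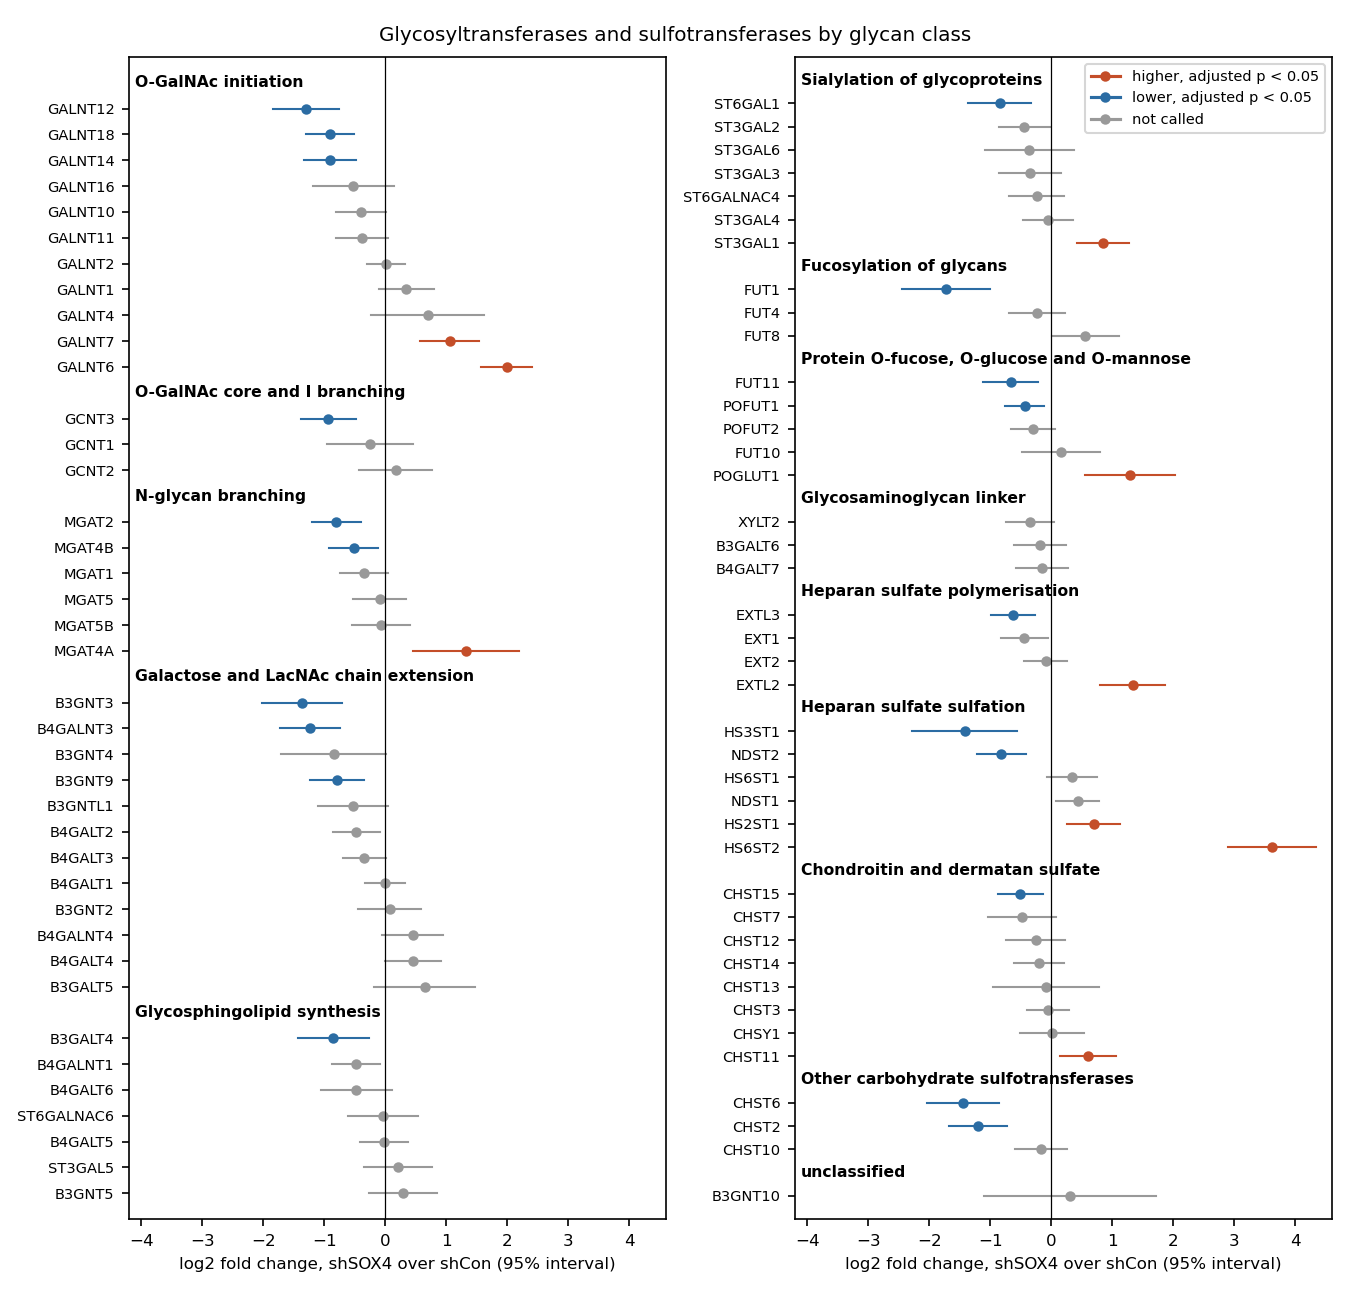
Log2 fold change (shSOX4 over shCon, x axis) of each of the 79 members, grouped by glycan class, with the point as the edgeR estimate and the line as its 95% interval. Red marks the 9 members called higher, blue the 20 called lower and grey the 50 not called, with HS6ST2 at 3.62 and FUT1 at -1.73 as the extremes.

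The starting regions of 4 genes are shown because, among the called members with an entry in the promoter table HS6ST2 and EXTL2 had the largest rises and FUT1 and CHST6 the largest falls. Each runs 5′ to 3′ on the gene's own strand from 250 bases before to 50 bases after the start, from RefSeq on GRCh38.p14, and all 4 lie on the minus strand. The search was for ACAAAG and ACAATG, cores of the motif bound by SOX proteins, on both strands, and any match is in capitals.
HS6ST2, chrX:132961321-132961620: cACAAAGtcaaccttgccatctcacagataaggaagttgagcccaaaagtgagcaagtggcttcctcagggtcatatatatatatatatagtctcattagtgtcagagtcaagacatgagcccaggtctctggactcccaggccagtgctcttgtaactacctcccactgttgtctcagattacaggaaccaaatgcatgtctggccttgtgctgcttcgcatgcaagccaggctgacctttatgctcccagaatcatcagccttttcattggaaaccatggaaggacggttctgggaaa
EXTL2, chr1:100894793-100895092: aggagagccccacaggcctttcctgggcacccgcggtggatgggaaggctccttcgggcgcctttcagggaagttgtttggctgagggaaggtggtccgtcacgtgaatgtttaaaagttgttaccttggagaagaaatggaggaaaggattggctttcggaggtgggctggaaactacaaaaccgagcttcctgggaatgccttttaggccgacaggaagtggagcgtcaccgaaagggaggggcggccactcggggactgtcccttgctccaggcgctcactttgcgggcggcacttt
FUT1, chr19:48755309-48755608: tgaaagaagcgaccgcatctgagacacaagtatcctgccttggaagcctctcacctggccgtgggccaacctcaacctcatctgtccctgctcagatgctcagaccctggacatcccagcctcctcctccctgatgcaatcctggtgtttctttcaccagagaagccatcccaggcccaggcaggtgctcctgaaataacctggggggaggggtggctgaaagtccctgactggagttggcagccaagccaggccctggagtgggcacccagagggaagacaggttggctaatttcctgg
CHST6, chr16:75495392-75495691: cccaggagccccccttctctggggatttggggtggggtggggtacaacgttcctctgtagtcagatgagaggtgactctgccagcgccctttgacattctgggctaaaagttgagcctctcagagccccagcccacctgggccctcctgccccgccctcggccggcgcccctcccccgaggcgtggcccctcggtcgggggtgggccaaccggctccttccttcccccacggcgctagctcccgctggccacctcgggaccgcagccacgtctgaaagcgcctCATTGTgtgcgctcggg
HS6ST2 held 1 match at position -249 from the start and CHST6 held 1 at position 34, on the opposite strand, while EXTL2 and FUT1 held 0. A match is in 24.5% of the 35116 promoters of that table, so 1 gene of each direction with a match describes letters only, not binding. A promoter was found for 62 of 79 members, under the 80% needed to compare a promoter property over the list, so no such comparison was made.

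Among the 11 GALNT enzymes that start mucin-type O-glycans, 2 rose (18.2%) and 3 fell (27.3%), against 17% and 15.8% of all features. The class median was -0.38. GALNT6 (ENSG00000139629) was at 8.61, 7.74 and 9.33 CPM in shCon and 33.4, 38.3 and 30.2 CPM in shSOX4. Every shSOX4 library was far above every shCon library, with means of 8.56 ± 0.796 and 34 ± 4.13 CPM (SD, n = 3 each) and a rise of 1.99 on the log2 scale (SE 0.194, edgeR adjusted p = 4.87e-06). GALNT7, which prefers peptides that already carry a sugar, had 3.81, 4.41 and 3.26 CPM in shCon and 8.07, 8.29 and 7.5 CPM in shSOX4, a rise of 1.05 (SE 0.228, edgeR adjusted p = 0.00361). The other 3 moved down. GALNT12 was at 11.2, 9.81 and 6.47 CPM in shCon and 3.46, 4.12 and 3.54 CPM in shSOX4, and fell by 1.31 (SE 0.252, edgeR adjusted p = 0.0017). GALNT18 went from 41.8, 47.9 and 55.9 CPM to 25.5, 24.7 and 27.4 CPM and fell by 0.91 (SE 0.181, edgeR adjusted p = 0.0021). Its lowest control library was well above its highest knockdown library, as was also the case for GALNT14, with 50.1, 53.5 and 64.1 CPM against 29.3, 24.0 and 36.0 CPM, a fall by 0.91 (SE 0.196, edgeR adjusted p = 0.00357). All 5 calls held in each of the 16 other settings and fits that gave a value.

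GALNT2, which acts broadly on many peptides, was not called. It had 49 FPKM in shCon and 49.6 FPKM in shSOX4, the highest level per length of its class, with 248, 230 and 225 CPM against 245, 236 and 227 CPM (log2 0.01, 95% interval -0.30 to 0.32, adjusted p = 0.96, edgeR). Below it the order of the family was different in the 2 groups. By share of the summed FPKM of the class, GALNT14 held 16.8% ± 2.18 and GALNT18 15.8% ± 2.29 in shCon and 10.3% ± 1.94 and 9.68% ± 0.391 in shSOX4 (SD, n = 3 each), while GALNT6 held 1.64% ± 0.168 and 7.38% ± 1.01. The FPKM ratio of GALNT6 to GALNT12 was 0.480 to 0.956 in shCon and 5.27 to 6.47 in shSOX4, so GALNT6 was below GALNT12 in every control library and above it in every knockdown library. This pair sets a called rise over a called fall, so the ratio restates those calls. The summed FPKM of the 11 was 120, 116 and 107 in shCon and 96.5, 104 and 99.5 in shSOX4. GALNT10 (-0.40), GALNT11 (-0.38), GALNT16 (-0.52), GALNT1 (0.34) and GALNT4 (0.69) were not called, with adjusted p of 0.121 to 0.231 (edgeR), and reads of GALNT4 are uncertain because it shares sequence with the POC1B-GALNT4 readthrough transcript.

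**Figure D2:**
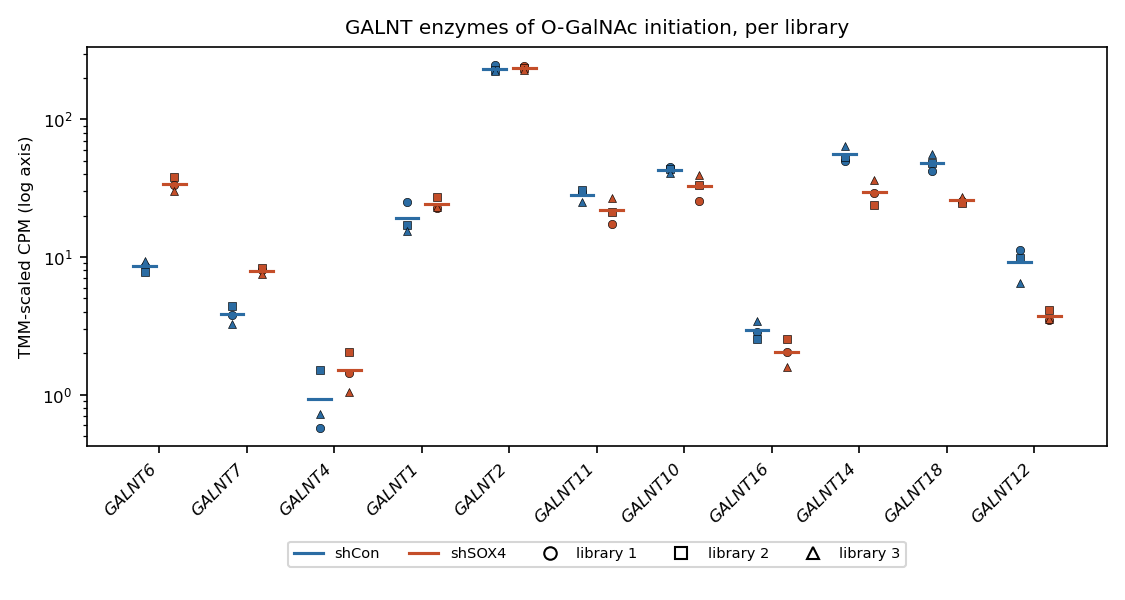
TMM-scaled CPM (log axis) of the 11 GALNT enzymes in each library, ordered by log2 fold change from GALNT6 (1.99) to GALNT12 (-1.31), with symbols for the library number and a bar at the mean of 3. GALNT6 and GALNT7 are higher and GALNT14, GALNT18 and GALNT12 lower in all 3 shSOX4 libraries, and GALNT2 lies at 225 to 248 CPM in all 6.

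Of the 3 GCNT enzymes that branch O-glycan cores or poly-N-acetyllactosamine, 1 fell (33.3%, against 15.8% of all features), GCNT3. This mucin-type branching enzyme was at 15.6, 13.5 and 11 CPM in shCon and 6.25, 7.24 and 7.5 CPM in shSOX4, a fall by 0.94 (SE 0.212, edgeR adjusted p = 0.00468). GCNT2, which makes the I blood group branch, had 15.3, 12.8 and 8.16 CPM against 8.51, 15.6 and 16.9 CPM (0.17, 95% interval -0.42 to 0.77). The 2 libraries that stand apart were the low ones in both groups for GCNT2. GCNT1, the leukocyte-type core branching enzyme, was at -0.25 (adjusted p = 0.587, edgeR). The summed FPKM of the class overlapped, with 3.86 to 7.43 in shCon and 3.27 to 5.31 in shSOX4, and shCon 3 was the lowest control.

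N-glycan branching had the highest summed level of the classes and a class median of -0.22. Of its 6 members 2 fell (33.3%) and 1 rose (16.7%), against 15.8% and 17% of all features. MGAT2, which adds the first sugar of the second antenna and so opens the way to complex N-glycans, was at 248, 226 and 184 CPM in shCon and 106, 112 and 160 CPM in shSOX4. The groups did not overlap, with shCon 3 the lowest control and shSOX4 3 the highest knockdown library, and it fell by 0.80 (SE 0.189, edgeR adjusted p = 0.00587). MGAT4B, which adds a further branch, was the member with the highest level, 113 FPKM in shCon and 80.2 FPKM in shSOX4. It had 256, 240 and 361 CPM against 237, 192 and 168 CPM, a fall by 0.52 (SE 0.191, edgeR adjusted p = 0.0488). It was no longer called by edgeR with shCon 3 (adjusted p = 0.166), shSOX4 2 (adjusted p = 0.15) or shSOX4 3 (adjusted p = 0.185) left out. MGAT4A makes the same branch and was scarce, at 1.14, 0.376 and 1.11 CPM in shCon and 2.05, 2.41 and 2.11 CPM in shSOX4. It rose by 1.32 (SE 0.407, edgeR adjusted p = 0.0234), a call lost without shCon 2 (adjusted p = 0.0875), shSOX4 2 (adjusted p = 0.0747) or shSOX4 3 (adjusted p = 0.0522, all edgeR), and its FPKM stayed at or under 0.00419 of that of MGAT4B in every library.

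MGAT1, the first enzyme of the branching sequence, had 140, 153 and 208 CPM against 152, 121 and 121 CPM and was not called (-0.35, 95% interval -0.74 to 0.04, adjusted p = 0.152, edgeR). MGAT5, which makes the tumour-associated outer branch, was at -0.09 and its relative MGAT5B at -0.07 (adjusted p = 0.752 and 0.83, edgeR). Over the 6 enzymes the summed FPKM was 243, 224 and 255 in shCon and 180, 166 and 162 in shSOX4, with no overlap. MGAT2 and MGAT4B together made up 34.6% of the net difference in summed CPM over all 79 members. In shCon 3 the members of this class stood a median of 0.46 on the log2 scale above the other control libraries.

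Enzymes that add galactose or extend lactosamine chains leaned downward, with a class median of -0.41. Of 12 members 3 fell (25%, against 15.8% of all features). By edgeR, DESeq2 or limma-voom 0 were called higher, and 0 had an unadjusted p under 0.05 upward. B4GALNT3, which caps chains with N-acetylgalactosamine in place of galactose, went from 9.46, 12.4 and 14.6 CPM to 5.54, 5.54 and 4.44 CPM and fell by 1.23 (SE 0.229, edgeR adjusted p = 0.00134). B3GNT3, which extends core O-glycans, went from 6.13, 3.49 and 7.11 CPM to 2.52, 2.1 and 1.85 CPM and fell by 1.37 (SE 0.307, edgeR adjusted p = 0.00438). In both the groups were separate, and for B3GNT3 the control libraries varied more than those of the knockdown. B3GNT9 was at 25.3, 19.8 and 29.5 CPM against 16.4, 14.6 and 12.0 CPM and fell by 0.79 (SE 0.209, edgeR adjusted p = 0.0108), a call lost without shSOX4 3 (adjusted p = 0.0582, edgeR).

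The general galactosyltransferases gave smaller values. B4GALT2, the most abundant of the class at 62.6 FPKM in shCon and 43.9 FPKM in shSOX4, had 133, 140 and 200 CPM against 124, 110 and 106 CPM. Its groups did not overlap, but it was not called (-0.47, 95% interval -0.86 to -0.09, adjusted p = 0.0563, edgeR), and it passed without shCon 1 (adjusted p = 0.0379) or shSOX4 1 (adjusted p = 0.042, both edgeR). B4GALT3 was at -0.34 (adjusted p = 0.121, edgeR), also without overlap, and B4GALT1, the main N-glycan galactosyltransferase, at -0.01 with a 95% interval from -0.34 to 0.32. The remaining members were not called: B3GNT4 at -0.85, B3GNTL1 at -0.53, B3GNT2 at 0.07, B4GALNT4 at 0.45, B4GALT4 at 0.46 and B3GALT5 at 0.65. Whether B3GNTL1 acts on such chains was not examined, though it counts in the class median, sums and calls. The summed FPKM of the class was 162, 157 and 178 in shCon and 137, 136 and 124 in shSOX4, while in shCon 3 its members stood a median of 0.39 above the other controls. Without shCon 3 the class median was -0.26. Without shSOX4 1, 6 members of the class were called lower, B3GNT4 (adjusted p = 0.004) and B3GNTL1 (adjusted p = 0.018) among them, and B4GALT4 was called higher (adjusted p = 0.0381, all edgeR).

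Of the 7 sialyltransferases acting on glycoproteins 1 rose and 1 fell (14.3% each, against 17% and 15.8% of all features). ST3GAL1, which puts sialic acid on the core disaccharide of O-glycans, was at 13.0, 14.8 and 11.1 CPM in shCon and 20.1, 23.7 and 26.1 CPM in shSOX4, a rise of 0.84 (SE 0.197, edgeR adjusted p = 0.00564). ST6GAL1, which caps N-glycans with sialic acid in another linkage, was at 11.4, 7.93 and 7.32 CPM against 5.66, 4.89 and 4.32 CPM, a fall by 0.84 (SE 0.242, edgeR adjusted p = 0.0166). The call for ST6GAL1 was lost without shCon 1 (adjusted p = 0.0991), shSOX4 2 (adjusted p = 0.057) or shSOX4 3 (adjusted p = 0.0713, all edgeR). These enzymes had like levels in the control, with an FPKM ratio of ST3GAL1 to ST6GAL1 of 0.840 to 1.21, and a ratio of 2.61 to 4.38 in shSOX4. The higher ratio follows from their calls. ST6GALNAC4, the most abundant of the class at 51.8 and 44.6 FPKM, had 83.5, 78.0 and 120 CPM against 97.2, 78.4 and 62.5 CPM and was not called (-0.24, adjusted p = 0.386, edgeR). ST3GAL2 (-0.45), ST3GAL3 (-0.35), ST3GAL6 (-0.36) and ST3GAL4 (-0.05) were not called either. Members of this class stood a median of 0.33 above the other controls in shCon 3 and 0.28 above the other knockdown libraries in shSOX4 1, and the summed FPKM overlapped (96.4 to 119 against 75.6 to 111).

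FUT1 had the most negative log2 fold change of all members. This fucosyltransferase, which makes the H antigen of the ABO blood group series, was at 5.13, 6.69 and 8.02 CPM in shCon and 3.14, 1.55 and 1.28 CPM in shSOX4. The groups did not overlap, with shSOX4 1 the highest of its group, and FUT1 fell by 1.73 (SE 0.338, edgeR adjusted p = 0.00185), with 30.1% of the control mean remaining. The call held in all 6 fits that left out 1 library, with adjusted p of 1.18e-05 to 0.0111 (edgeR). FUT8, which adds the core fucose of N-glycans, had 8.94, 8.41 and 4.55 CPM against 9.06, 11.9 and 11.3 CPM and was not called (0.55, 95% interval 0.00 to 1.11, adjusted p = 0.111, edgeR). FUT4, a Lewis-type fucosyltransferase, was at -0.24 (adjusted p = 0.414, edgeR).

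Enzymes that build glycosphingolipids were mostly not called, with 1 of 7 lower (14.3%, against 15.8% of all features). The class median was -0.04, and -0.31 with shSOX4 3 left out. B3GALT4, which makes the ganglioside GM1, was at 4.29, 3.87 and 3.88 CPM in shCon and 1.97, 2.57 and 2.14 CPM in shSOX4, a fall by 0.85 (SE 0.272, edgeR adjusted p = 0.0277). The libraries within each group were close together, yet this call was lost without any single library except shCon 3, with adjusted p of 0.0504 to 0.0809 (edgeR). B4GALNT1, the step before it, which makes GM2 and GD2, had 58.2, 57.2 and 78.2 CPM against 51.0, 45.7 and 41.9 CPM without overlap and was not called (-0.48, adjusted p = 0.0568, edgeR), but passed without shSOX4 1 (adjusted p = 0.0421, edgeR). ST3GAL5, the GM3 synthase at the head of the ganglioside series, was at 0.21 in counts while its mean FPKM went the other way, from 1.84 to 1.68, and was not called. The lactosylceramide synthases B4GALT5 and B4GALT6 were at -0.02 and -0.48, and B3GNT5, which starts the lacto series, at 0.28. ST6GALNAC6 was the most abundant at 29.7 and 28.3 FPKM, with 73.0, 87.3 and 68.4 CPM against 84.2, 38.1 and 99.4 CPM. Its value of -0.04 rests on the low shSOX4 2, and without that library it was 0.27.

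Among the 5 enzymes that attach fucose or glucose straight to proteins 1 rose (20%) and 2 fell (40%), against 17% and 15.8% of all features. POGLUT1, which glucosylates the epidermal growth factor repeats of Notch receptors, was at 1.77, 3.55 and 2.19 CPM in shCon and 3.52, 6.5 and 8.33 CPM in shSOX4, a rise of 1.29 (SE 0.346, edgeR adjusted p = 0.0118). The shSOX4 1 value lay just below the highest control, and the call was lost without shSOX4 3 (adjusted p = 0.0705, edgeR). POFUT1, which fucosylates the same repeats, was abundant and even within the control at 166, 163 and 162 CPM, against 120, 112 and 130 CPM, a fall by 0.44 (SE 0.15, edgeR adjusted p = 0.0369). Its call was lost without any single library except shCon 3, with adjusted p of 0.059 to 0.178 (edgeR). FUT11 went from 15.2, 11.6 and 11.7 CPM to 8.39, 6.87 and 8.93 CPM and fell by 0.67 (SE 0.213, edgeR adjusted p = 0.0269), a call lost without shCon 1 (adjusted p = 0.119) or shSOX4 2 (adjusted p = 0.129, both edgeR). POFUT2, which acts on thrombospondin repeats, had 38.7, 35.7 and 40.8 CPM against 33.3, 30.4 and 30.1 CPM and was not called (-0.30, adjusted p = 0.193, edgeR), nor was FUT10 (0.16). KDELC1 and KDELC2, older names of POGLUT2 and POGLUT3 that the name rule does not catch, were at 0.44 and 0.35 and not called (adjusted p = 0.192 and 0.22, edgeR).

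Heparan and chondroitin sulfate chains start from one shared linker, and 0 of its 3 measured enzymes were called by edgeR, DESeq2 or limma-voom (0 at an unadjusted p under 0.05). XYLT2, which adds the first xylose, was at -0.35, B3GALT6 at -0.19 and B4GALT7 at -0.16 (adjusted p of 0.16 to 0.573, edgeR), and XYLT2 passed without both shCon 3 and shSOX4 1 (adjusted p = 0.0227, edgeR). B4GALT7 had the highest level of the 3, 17.2 FPKM in shCon and 15.5 FPKM in shSOX4, with 29.2, 28.6 and 36.9 CPM against 34.9, 23.6 and 26.5 CPM. In both shCon 3 and shSOX4 1 the linker enzymes stood high within their group, by a median of 0.35 and 0.39.

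In heparan sulfate polymerisation the enzymes that start and stop the chain went opposite ways. EXTL2, which caps a phosphorylated linker and so blocks elongation, was at 5.59, 3.92 and 3.21 CPM in shCon and 9.30, 12.8 and 10.1 CPM in shSOX4, a rise of 1.33 (SE 0.252, edgeR adjusted p = 0.0015). EXTL3, which adds the first N-acetylglucosamine of the heparan chain, was at 88.5, 80.5 and 96.1 CPM against 65.0, 53.0 and 52.6 CPM, a fall by 0.64 (SE 0.169, edgeR adjusted p = 0.0114), lost without shSOX4 2 (adjusted p = 0.0736, edgeR). Neither gene overlapped between the groups, and the FPKM ratio of EXTL2 to EXTL3 was 0.0542 to 0.118 in shCon and 0.232 to 0.424 in shSOX4. That ratio, too, follows from the calls of its genes. EXT1 and EXT2 form the polymerase that lengthens the chain. EXT1 had 67.2, 62.2 and 55.7 CPM against 37.5, 46.6 and 51.9 CPM without overlap and was not called (-0.45, 95% interval -0.83 to -0.06, adjusted p = 0.0714, edgeR), but passed without shCon 3 (adjusted p = 0.0421, edgeR). EXT2, the most abundant of the 4 at 20.4 and 19 FPKM, was at -0.09 (95% interval -0.45 to 0.26, adjusted p = 0.694, edgeR), with 61.2 to 77.4 CPM over all 6 libraries.

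Heparan sulfate sulfation had the largest rise of any member and was the class with a positive median (0.38). HS6ST2 (ENSG00000171004), one of the enzymes that sulfate glucosamine at the 6-O position, was at 0.416, 0.484 and 0.292 CPM in shCon and 5.10, 4.61 and 5.15 CPM in shSOX4. The means were 0.397 ± 0.0975 and 4.96 ± 0.298 CPM (SD, n = 3 each), a rise of 3.62 (SE 0.337, 95% interval 2.90 to 4.34, edgeR adjusted p = 3e-06). The call held in all 6 fits that left out 1 library, with adjusted p of 6.33e-08 to 3.27e-05 (edgeR). HS6ST2 has a row only through its shSOX4 values and could not have fallen, so these fits do not test its direction. HS6ST1, its more abundant relative, had 20.9, 18.0 and 24.4 CPM against 29.0, 27.2 and 23.9 CPM and was not called (0.34, adjusted p = 0.181, edgeR). Per length HS6ST2 remained the minor form, with an FPKM ratio to HS6ST1 of 0.0100 to 0.0233 in shCon and 0.164 to 0.224 in shSOX4. HS2ST1, the 2-O-sulfotransferase, was at 8.81, 8.52 and 7 CPM against 11.7, 14.8 and 12.8 CPM, a rise of 0.69 (SE 0.206, edgeR adjusted p = 0.02), lost without shCon 2 (adjusted p = 0.0526) or shSOX4 2 (adjusted p = 0.102, both edgeR).

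The N-sulfotransferases, which remove acetyl groups and replace them with sulfate, differed. NDST2 was at 24.2, 26.7 and 23.1 CPM in shCon and 12.1, 14.0 and 15.8 CPM in shSOX4, a fall by 0.82 (SE 0.189, edgeR adjusted p = 0.0053). NDST1, the most abundant enzyme of the class at 11.9 and 15.5 FPKM, had 88.9, 87.7 and 119 CPM against 131, 138 and 128 CPM without overlap and was not called (0.43, 95% interval 0.07 to 0.79, adjusted p = 0.0612, edgeR), but passed without shCon 3 (adjusted p = 0.0102, edgeR). Their FPKM ratio, NDST1 over NDST2, was 1.65 to 2.49 in shCon and 3.74 to 5.06 in shSOX4. HS3ST1, which makes the antithrombin-binding site, was scarce at 3.07, 2.12 and 2.74 CPM against 1.61, 0.805 and 0.536 CPM, a fall by 1.42 (SE 0.403, edgeR adjusted p = 0.0157), lost without shSOX4 2 (adjusted p = 0.0646) or shSOX4 3 (adjusted p = 0.0684, both edgeR). Over the 6 enzymes the summed FPKM was 24.6, 24.2 and 25.5 in shCon and 28.2, 30.8 and 27.1 in shSOX4, without overlap and upward. The uncalled NDST1 had the largest rise in mean FPKM among them. Summed over all features, FPKM also went upward without overlap, from 560547, 585148 and 590634 in shCon to 630191, 605487 and 608363 in shSOX4.

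**Figure D3:**
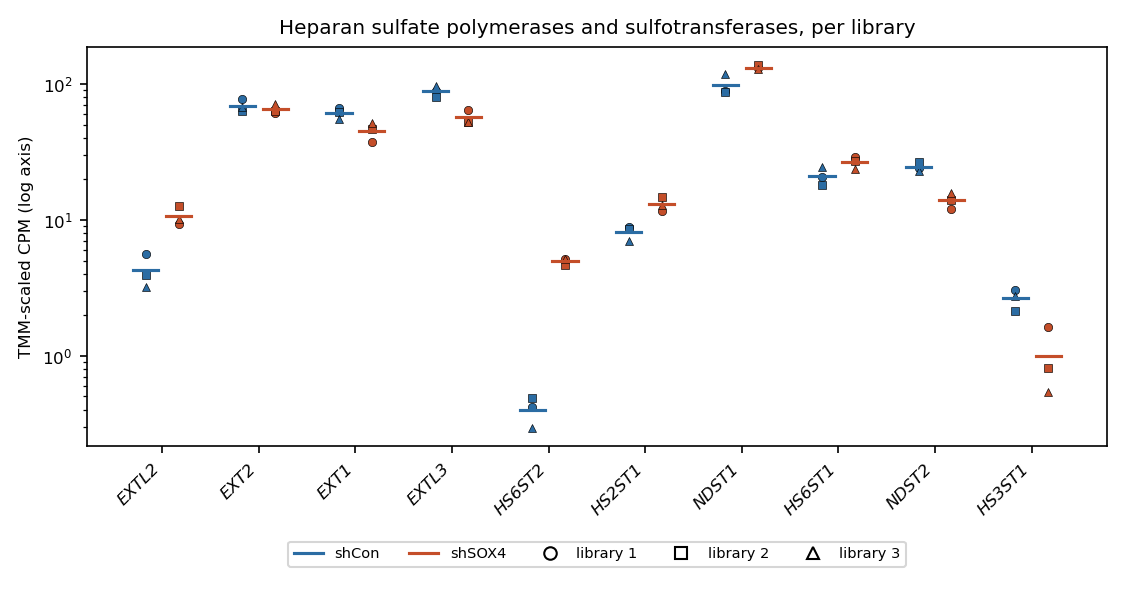
TMM-scaled CPM (log axis) of the heparan sulfate polymerisation enzymes (EXTL2 to EXTL3) and sulfotransferases (HS6ST2 to HS3ST1) in each library, ordered within each class by log2 fold change, with a bar at the mean of 3. HS6ST2 lies at 0.292 to 0.484 CPM in shCon and 4.61 to 5.15 CPM in shSOX4, while EXT2 overlaps between the groups.

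Chondroitin and dermatan sulfate enzymes were mostly not called, with 1 of 8 higher and 1 lower. These are 12.5% each, against 17% and 15.8% of all features, and the class median was -0.15. CHST15, which adds a further sulfate to sulfated galactosamine, was at 63.2, 66.1 and 56.4 CPM against 37.3, 45.8 and 47.4 CPM, a fall by 0.51 (SE 0.174, edgeR adjusted p = 0.0372). CHST11, a chondroitin 4-O-sulfotransferase, was at 14.9, 12.3 and 11.3 CPM against 15.8, 18.4 and 24.4 CPM, a rise of 0.61 (SE 0.214, edgeR adjusted p = 0.0419). Both calls rested on few libraries. That of CHST15 was lost without any single library except shCon 3 (adjusted p of 0.058 to 0.139, edgeR), and that of CHST11 without shCon 2, shCon 3, shSOX4 2 or shSOX4 3 (adjusted p of 0.0888 to 0.199, edgeR). CHST3, the 6-O-sulfotransferase with the highest level of the uncalled members at 11.7 and 11.4 FPKM, was at 79.2 to 96.4 CPM in shCon and 80.1 to 89.6 CPM in shSOX4 (-0.05, 95% interval -0.39 to 0.29). CHSY1, a polymerase of the chain, was at 0.01, the dermatan enzyme CHST14 at -0.20, CHST13 at -0.09, CHST7 at -0.48 and CHST12 at -0.26. CHST12 and ST3GAL5 are the 2 members whose deposited counts and FPKM differ in direction, and for CHST12 mean CPM went from 48.9 to 40.8 while mean FPKM went from 4.07 to 5.62.

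Of the other carbohydrate sulfotransferases 2 of 3 fell (66.7%, against 15.8% of all features), and the class median was -1.20. CHST6, which sulfates N-acetylglucosamine in keratan sulfate, was at 15.7, 12.4 and 16.3 CPM in shCon and 6.81, 6.34 and 3.10 CPM in shSOX4, a fall by 1.45 (SE 0.274, edgeR adjusted p = 0.00148). CHST2, which sulfates the same sugar on selectin ligands, was at 10.5, 10.1 and 11.8 CPM against 5.72, 3.99 and 4.38 CPM, a fall by 1.20 (SE 0.224, edgeR adjusted p = 0.00135). All 3 control libraries were above all 3 knockdown libraries in both genes, and both calls held in all 6 fits that left out 1 library. CHST10, which sulfates the HNK-1 epitope of neural glycoproteins, had 14.2, 20.5 and 20 CPM against 16.6, 15.8 and 16.1 CPM and was not called (-0.17, adjusted p = 0.526, edgeR). B3GNT10, now named B3GALT9 and left without a class, was at 3.57 and 3.84 CPM in library 2 of either group and at 0.554 to 1.58 CPM in the other 4 (0.31, adjusted p = 0.747, edgeR; adjusted p = 0.0493 without shCon 2).

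Called members differed in their control level. The 9 called higher had a median of 1.08 FPKM in shCon (0.0812 to 2.09), the 20 called lower 4.42 FPKM (0.324 to 113) and the 50 not called 5.40 FPKM. Over all features the medians were 1.90 FPKM for those called higher, 8.84 FPKM for those called lower and 5.21 FPKM for the others. Those called higher had the lowest median in both sets, whereas the features called lower were above the uncalled ones over all features and the members called lower were below the uncalled members. The shCon level is also the base of the fold change behind each call. A feature under 1 CPM in every shCon library has a row only through its shSOX4 values. A low control level among those called higher is therefore partly built in. These differences between sets were not tested. Summed over the 79 members, the level was 927, 893 and 944 FPKM in shCon and 787, 744 and 728 FPKM in shSOX4, and their share of all counts was 0.311 to 0.332% against 0.264 to 0.274%. Every shSOX4 library was below every shCon library in both measures.

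**Figure D4:**
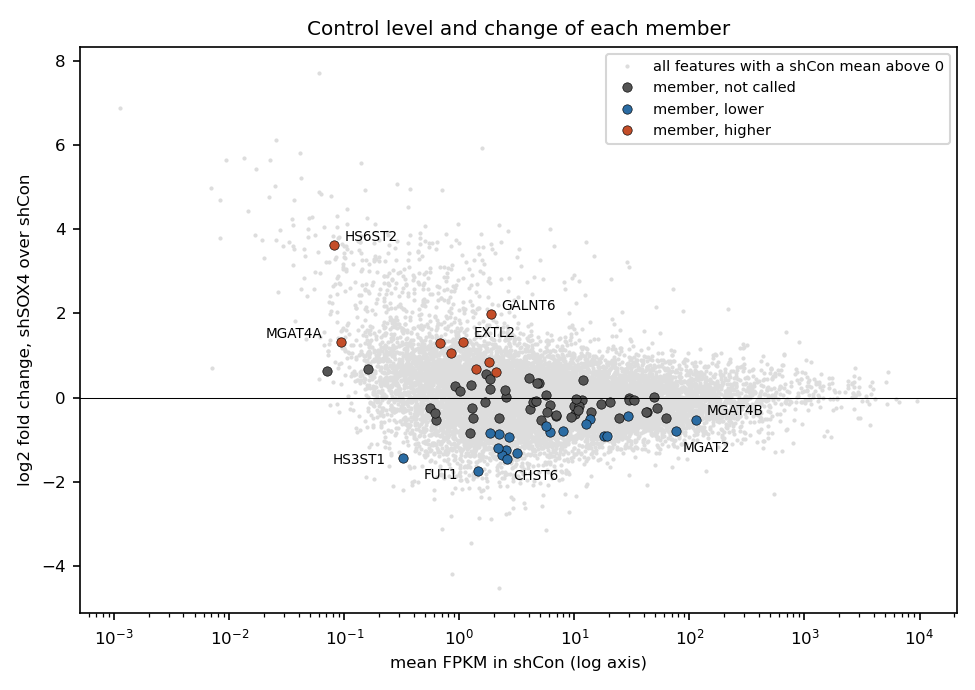
Mean FPKM in shCon (x, log axis) against log2 fold change (shSOX4 over shCon, y) for the 79 members in colour and all features with a control mean above 0 in pale grey. The 9 members called higher lie at or below 2.09 FPKM, and MGAT4B at 113 FPKM and MGAT2 are the most abundant of those called lower.

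**Figure D5:**
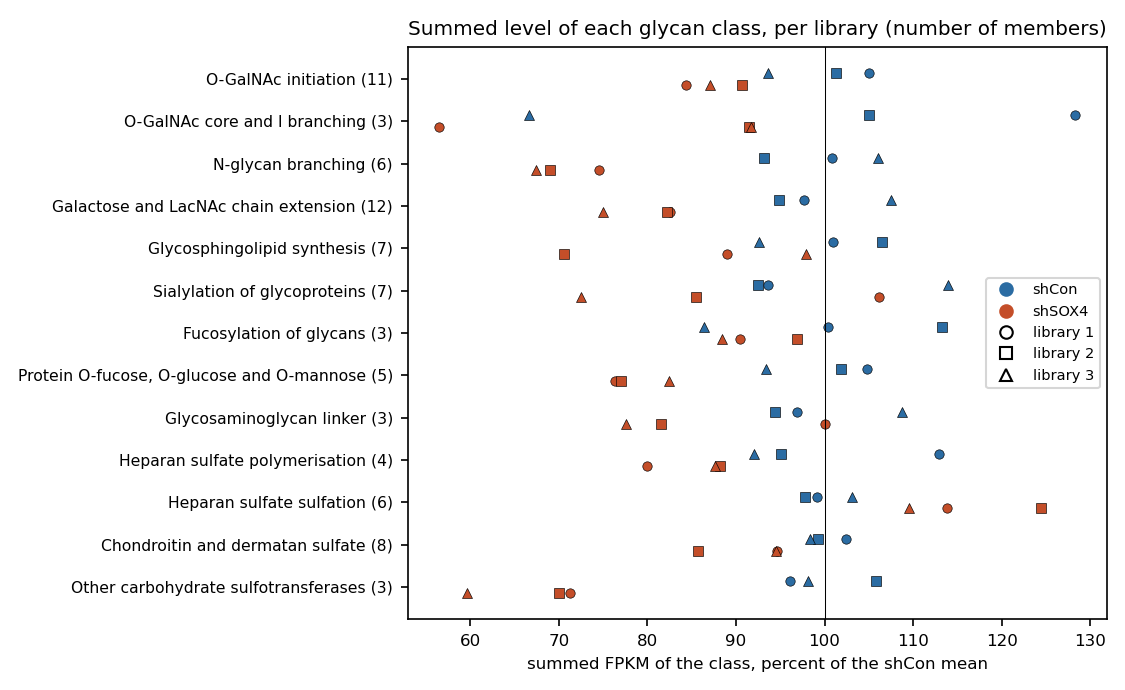
Summed FPKM of each glycan class in each library as percent of the mean of the 3 shCon libraries (x), with blue for shCon, red for shSOX4 and symbols for the library number. N-glycan branching lies at 224 to 255 FPKM in shCon and 162 to 180 FPKM in shSOX4, heparan sulfate sulfation lies above the control in all 3 shSOX4 libraries, and sialylation overlaps.

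Around these enzymes, 151 other genes of glycosylation with a row had more calls higher than lower. Of them 36 were higher (23.8%, against 17% of all features) and 16 lower (10.6%, against 15.8%). Together 34.4% were called, near the 32.8% of all features, and the median was 0.08, against -0.01. With shSOX4 2 left out 8 were lower, and with both shCon 3 and shSOX4 1 left out 27 were. Over all features 1098 and 2642 were lower in those fits, against 2136 with all libraries. All 6 mucins and similar carriers of O-glycans were called higher, with MUC4, at 0.0876, 0.376 and 0 CPM in shCon and 2.38, 1.92 and 2.23 CPM in shSOX4, as the largest (3.79, adjusted p = 0.000685, edgeR). MUC1 rose by 1.22 (adjusted p = 0.00302, edgeR) and PODXL, podocalyxin, by 1.67 (adjusted p = 0.00388, edgeR), and 1 of the 6, CD164, was lost without shSOX4 2 (adjusted p = 0.096, edgeR). The galectin LGALS3, which binds lactosamine, rose by 0.53 (adjusted p = 0.0138, edgeR), lost without shCon 2 (adjusted p = 0.0512) or shSOX4 2 (adjusted p = 0.0533, both edgeR). MUC4 is in the table only through its shSOX4 values and could not have fallen.

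Donor synthesis was near the background, while the N-glycan precursor pathway had more members higher than lower. Of 26 genes that make nucleotide sugars or the sulfate donor, 5 rose (19.2%) and 4 fell (15.4%), against 17% and 15.8% of all features, with a median of -0.07 and 14 negative values: UAP1 rose by 1.01 and PGM3 by 1.05, both on the route to UDP-N-acetylglucosamine, while GFPT2, an isoform of the enzyme that starts that route, fell by 1.12. Of 10 transporters that carry these donors into the Golgi 2 rose (20%), the GDP-fucose transporter SLC35C1 by 0.80 and SLC35B4 by 0.74. The call for SLC35B4 was lost without shCon 3, shSOX4 2 or shSOX4 3 (adjusted p of 0.0681 to 0.121, edgeR). Of 26 genes of the dolichol pathway and the oligosaccharyltransferase, which build the N-glycan precursor and attach it, 7 rose (26.9%) and 1 fell (3.85%). Together 30.8% of these were called, near the 32.8% of all features. ALG5 rose by 1.36, ALG13 by 1.22 and DAD1 by 0.86. Of 9 trimming enzymes 3 rose (33.3%), MAN1A2 by 1.18, GANAB by 0.61 and MANEA by 0.84. The call for GANAB was lost without shCon 2 (adjusted p = 0.0685) and that for MANEA without any single library (adjusted p of 0.0594 to 0.0813, edgeR). In donor synthesis 1 fell with shSOX4 3 left out and 2 with shSOX4 2 left out, 4 rose and 5 fell with shCon 1 left out, and DESeq2 called 6 higher and 6 lower. Among the transporters DESeq2 called 3 higher and 2 lower, and 0 to 1 fell in the fits with 1 library left out.

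Proteoglycan genes and their further enzymes went both ways. Of 16 core proteins 5 rose (31.25%) and 3 fell (18.75%), against 17% and 15.8% of all features. SRGN, the serglycin core, was up by 3.54, the syndecan SDC2 by 2.05 and BGN, biglycan, by 2.12 (adjusted p = 4.69e-07, 8.52e-06 and 2.6e-05, edgeR). Of 15 other glycosaminoglycan enzymes 4 rose (26.7%) and 3 fell (20%). SULF2, which strips the 6-O-sulfates that HS6ST enzymes add, was at 3.02, 1.48 and 2.71 CPM in shCon and 21.0, 29.8 and 23.5 CPM in shSOX4, a rise of 3.36 (SE 0.276, edgeR adjusted p = 1.04e-06). The gene of an enzyme that adds this sulfate and the gene of one that removes it were both higher. CSGALNACT1, which starts chondroitin chains, rose by 2.17, and the hyaluronan synthase HAS3 fell by 1.45. Of 15 enzymes of O-mannose, O-GlcNAc and Notch sugars 3 rose (20%) and 1 fell (6.67%), with the Notch-modifying LFNG up by 1.51, OGT up by 0.82 and XXYLT1 down (-0.65). The call for OGT was lost without shSOX4 2 or shSOX4 3 (adjusted p = 0.0649 and 0.091) and that for XXYLT1 without shSOX4 2 (adjusted p = 0.085, all edgeR).

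Degradation leaned downward. Of 18 sialidases and other glycosidases 4 fell (22.2%, against 15.8% of all features) and 14 had a negative value. By edgeR, DESeq2 or limma-voom 0 rose (0 upward at an unadjusted p under 0.05). Together 22.2% were called, against 32.8% of all features. The lysosomal mannosidase MAN2B1 was down (-0.99, adjusted p = 0.0028, edgeR), as was IDS, iduronate sulfatase (-0.62, adjusted p = 0.014, edgeR). The class median was -0.37, and the call for IDS was lost without shCon 2 or shSOX4 2 (adjusted p = 0.0556 and 0.0624, edgeR). With shSOX4 2 left out 2 fell, and with both shCon 3 and shSOX4 1 left out 7 fell. Over all features 1098 and 2642 fell in those fits, against 2136 with all libraries. By edgeR, DESeq2 and limma-voom 0 of the 5 core enzymes of glycosphingolipids and 0 of the 2 other mucin-type enzymes were called. At an unadjusted p under 0.05, 1 core enzyme was higher and 1 lower, and 1 mucin-type enzyme was higher.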

How the data were processed

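RNA-seq of 6 DU145 libraries was compared, 3 shCon and 3 shSOX4, from 1 table whose column letters NC and SH were read as shCon and shSOX4. Per the file headers it holds deposited counts, which are whole numbers for each gene, and FPKM, which the authors scaled by transcript length and depth. The authors' adjusted p-value and log2 fold change are deposited in the same table, made by a tool that no source used here names. Per the submitters' processing notes the build was hg19, and Bowtie2, HISAT2, STAR, deepTools 2.07 and MACS2 2.1.1 were used, in roles left unstated. The labels describe 2 library kits without assigning them. For annotation and strand setting: not given in the sources. Every feature has at least 1 CPM in 3 libraries, so genes low in both groups had been removed. The count to FPKM ratio held within 5% across libraries for 54.4% of members (46.8% of all features), so tests rest on counts, and FPKM serves for levels between genes, sums over genes and 2 alternative fits.

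The quasi-likelihood F test of edgeR 4.0.16 (R 4.3.3) was run on the counts, two-sided, with group only, TMM scaling and filterByExpr, which removed 0 features. P-values were adjusted by Benjamini-Hochberg over all 13527 features and called at 0.05. CPM are TMM-scaled, the standard error (SE) comes from the fit, and intervals are 95%. Data were simulated from the gene means and library sizes over 13527 genes. In them 59% of 100 genes changed by 1 on the log2 scale and 93% of 100 changed by 2 were recovered, and 5.59% of calls were false. Only those genes were changed, far fewer than the 4431 features called here. Counts were drawn independently in each library, so these shares need not hold for the real libraries.

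The members, classes and lists were chosen with earlier results of these data known. In each pair given as a FPKM ratio, the upper gene had the higher log2 fold change. These ratios therefore restate the single-gene values and are no separate result. Each class names its called members, gives up to 4 per library with the uncalled member of highest FPKM, and each further list names up to 3. A gene that this rule would name is not reported here. Alternatives tried were scaling by RLE or by total count, no filter, DESeq2 1.42.0, limma-voom (limma 3.58.1), a minimum of 1 CPM throughout a group, a block for the replicate number, limma on log2(FPKM + 0.1) and log2(FPKM + 1) for features averaging 1 FPKM or more, each library left out, and shCon 3 and shSOX4 1 left out together. Identifiers were matched to a gene name for all 79 members, and 76 of these names had a RefSeq entry as protein-coding. B3GNTL1, FUT10 and FUT11 had no entry under the name found, so these names may not be the current ones. Promoters came from RefSeq on GRCh38.p14.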

Additional observations from a re-analysis of the deposited data

How the results depend on the processing

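No called member changed sign under any of the 16 other settings, and 16 of the 29 calls held wherever a value was given. The FPKM fits gave no value for 10 members. All features called were 2509 to 4966 when 1 library was left out (2509 without shSOX4 2), members called lower 12 to 21, and other glycosylation genes called lower 8 to 21. Members called higher were 5 with limma on log2(FPKM + 1) and 5 on log2(FPKM + 0.1). Other glycosylation genes called lower were 27 without both shCon 3 and shSOX4 1, a fit that called 5532 of all features. The SOX4 value was -0.81 on log2(FPKM + 0.1), no longer passing, and -1.02 to -0.71 with 1 library left out. Leaving out 1 library gave class medians of -0.49 to -0.26 for galactose and lactosamine extension, -0.33 to -0.11 for fucosylation, 0.30 to 0.52 for heparan sulfate sulfation -0.33 to -0.024 for chondroitin and dermatan sulfate, -0.31 to -0.00026 for glycosphingolipids (-0.15 by limma-voom) and -0.40 to -0.23 for O-GalNAc initiation, and medians of 0.06 to 0.14 over the other glycosylation genes. With limma on log2(FPKM + 1) the median was 0.15 for fucosylation and -0.71 for the other sulfotransferases, and on log2(FPKM + 0.1) it was 0.20 for fucosylation. Those fits gave no value for FUT1. Uncalled members near 0 crossed it when 1 library was left out: GALNT2 (-0.014 to 0.054), GCNT2 (-0.042 to 0.43), ST6GALNAC6 (-0.31 to 0.27) and CHST3 (-0.12 to 0.019). Without both shCon 3 and shSOX4 1, GALNT2 was at -0.041 and CHST3 at 0.061.

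The replicate numbers did not pair the libraries: same-numbered libraries correlated at -0.29, 0.16 and -0.29. Over all pairs across the groups the largest correlation was 0.49, between shCon 3 and shSOX4 1, which a block for the replicate number does not model. With the replicate block 7 members were called higher, 15 lower and 3374 features in all, and other glycosylation genes called lower were 10. The low control counts of HS6ST2, MGAT4A and MUC4 limit the precision of their fold changes.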
